A study of Mus musculus with 40 samples.

Results

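The transcripts of the 3 chains of complement C1q, *C1qa*, *C1qb* and *C1qc*, were measured in choroid and retina of 20 mice with laser-induced choroidal neovascularisation. The chains were chosen by their gene symbols and are 3 of the 54307 genes in the table, in which each was matched by its Ensembl identifier (ENSMUSG00000036887, ENSMUSG00000036905 and ENSMUSG00000036896). Each mouse gave 1 choroid and 1 retina library, so that there were 40 libraries in 8 groups of 5. Of the choroid, only the central part with the laser lesions was sequenced, and it is called choroid here. All mice were C57BL/6J of both sexes, carried *Tgfbr2* fl/fl alleles, were given tamoxifen eye drops from an age of 6 to 7 weeks and were lasered with 6 spots per eye 3 days before the tissue was taken. Controls were littermates with no Cre. Tgfbr2ΔEC mice also carried Cdh5-CreERT2, a Cre that tamoxifen activates in cells using the promoter of the endothelial cadherin gene. The groups called + PLX received PLX5622, an inhibitor of the CSF1 receptor that depletes mononuclear phagocytes (MP), in the diet from the first tamoxifen dose to the end, and the groups called – PLX did not.

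C1q is the recognition unit of the classical complement pathway. Its A, B and C chains each have a collagen-like stalk and a globular head, combine in equal numbers, and bind antibody-coated surfaces and dying cells. With the proteases C1r and C1s it forms C1, which cleaves C4 and C2 and so starts the deposition of C3. Whereas the liver makes most complement proteins, C1q is made mainly by macrophages and, in neural tissue such as the retina, by microglia, and it is known there for tagging synapses and debris for uptake. The transcription factors PU.1 (*Spi1*), IRF8 and MAF are known to act at the C1q genes.

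The chains lie side by side on chromosome 4 of GRCm39, all on the minus strand. *C1qb* spans 136606009 to 136613511, *C1qc* 136616466 to 136620376 and *C1qa* 136623223 to 136626161, a cluster of 20153 bases with gaps of 2954 and 2846 bases between neighbours. An annotated antisense RNA, *Gm69251*, lies on the opposite strand from 136606837 to 136616939, overlaps *C1qb* and part of *C1qc*, and was not among the genes tested. The longest open reading frames of their canonical transcripts code for 245 (*C1qa*), 253 (*C1qb*) and 246 (*C1qc*) residues. Between 38.1% (*C1qa* and *C1qc*) and 45.3% (*C1qb* and *C1qc*) of aligned residues were identical, and the longest unbroken runs of the collagen triplet Gly-X-Y were 16, 29 and 16 triplets long in *C1qa*, *C1qb* and *C1qc*.

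Because the chains share one cluster and their levels moved together in these libraries, the DNA before their starts is shown. RefSeq promoter windows (GRCm38.p6, 250 bases before to 50 after the start) were given for *C1qb* and *C1qc*. Capitals mark every match to 4 searched motifs on either strand: the PU.1 core GAGGAA, the core of the MAF recognition element TGCTGA, the TATA box TATAAA and the composite motif of PU.1 and IRF. The lines give the bases before the outermost annotated start of each gene, 5′ to 3′ on the strand of the gene, at chr4:136886201-136886450 for *C1qb* and chr4:136893066-136893164 for *C1qc*.

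C1qb: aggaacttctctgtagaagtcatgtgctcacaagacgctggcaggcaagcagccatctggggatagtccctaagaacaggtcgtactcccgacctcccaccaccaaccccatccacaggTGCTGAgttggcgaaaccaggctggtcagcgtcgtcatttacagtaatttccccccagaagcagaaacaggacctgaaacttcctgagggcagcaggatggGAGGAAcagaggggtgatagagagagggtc

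C1qc: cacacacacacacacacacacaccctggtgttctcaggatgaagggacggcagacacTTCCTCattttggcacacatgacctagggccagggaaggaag

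The *C1qb* stretch held TGCTGA at position -131 and GAGGAA at position -30, counted from the RefSeq start. The *C1qc* stretch held the PU.1 core once, on the opposite strand (TTCCTC), at position -193. Neither window held TATAAA or the composite motif. Of 32851 RefSeq promoter windows of the same length, 28.3% held the PU.1 core on either strand, 19.5% the MAF core, 13.6% the TATA box and 2.72% the composite, so the motifs found are common ones and a match is a description of the letters only. *C1qa* had no entry among the windows.

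The deposited values were normalised read counts, which are not whole numbers. Approximate depth ranged from 21720522 to 28174821 reads per choroid and from 20940403 to 30421581 per retina, and 1 read was worth 0.905 to 1.19 normalised counts in choroid and 0.745 to 1.13 in retina. A gene at 3 reads or fewer in a library was taken to be at the floor, which covers counting error only. The labelled tissues were clear in their markers: the summed counts of 10 photoreceptor genes were 1035428 to 1542446 in retinas and 4014 to 138483 in choroids, and those of 5 fibroblast genes 375 to 1052 in retinas and 359546 to 566574 in choroids. *Tgfbr2*, the gene targeted in endothelium, ranged from 8729 to 12801 in choroids and from 66.4 to 293 in retinas. It was not called between genotypes in any of the 4 comparisons of a tissue and diet (limma, log2 differences -0.32 to 0.02, adjusted p from 0.925 to 1). Bulk tissue does not give its level in endothelium alone.

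All chains were highest in the choroid without PLX, where C1q ranked among the abundant transcripts. Values are listed in the order of the mouse numbers, with mice 1 to 5 control – PLX, 6 to 10 Tgfbr2ΔEC – PLX, 11 to 15 control + PLX and 16 to 20 Tgfbr2ΔEC + PLX. *C1qa* reached 4712, 6232, 5863, 5109 and 5000.3 normalised counts in the 5 control – PLX choroids (mean 5383 ± 637, SD, n = 5). *C1qb* reached 4719, 6007, 5548, 3925 and 3901 (4819.8 ± 948), and *C1qc* 4702, 5645, 5194, 4437 and 4358 (4867 ± 544). Per kilobase of the canonical transcript, *C1qa* ranked 211 among 17883 protein-coding genes above 0 in these choroids, *C1qc* 462 and *C1qb* 689. The order per length depends on the transcript chosen, since *C1qb* has 10 annotated transcripts of different length.

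Tgfbr2ΔEC – PLX choroids had levels in the same range. They held 5036, 4684, 5578, 4793 and 5188 counts of *C1qa* (5056 ± 353, SD, n = 5). *C1qb* was 5071, 3571, 5371, 3783 and 5276 (4614 ± 866), and *C1qc* was 4796, 3929, 5169, 4074 and 5010.1 (4596 ± 561). For each chain the genotypes overlapped, and 4 of the 10 – PLX choroids, 2 of each genotype, had less *C1qb* than the other 6.

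Retinas without PLX held far less. Control – PLX retinas held 373, 370.2, 402, 227 and 553 counts of *C1qa* (385 ± 116, SD, n = 5), 366, 366, 298, 172 and 457 of *C1qb* (332 ± 106) and 379, 357, 308, 198 and 527 of *C1qc* (354 ± 119). Tgfbr2ΔEC – PLX retinas held 406, 471, 317, 233 and 191 of *C1qa* (323 ± 117), 414, 404, 279.6, 178 and 158 of *C1qb* (287 ± 121) and 338, 393, 277, 184 and 173 of *C1qc* (273 ± 95.7). In controls the lowest value fell in the same mouse for each chain, and so did the highest, but the order of the other mice varied. The genotypes overlapped.

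**Figure D1:**
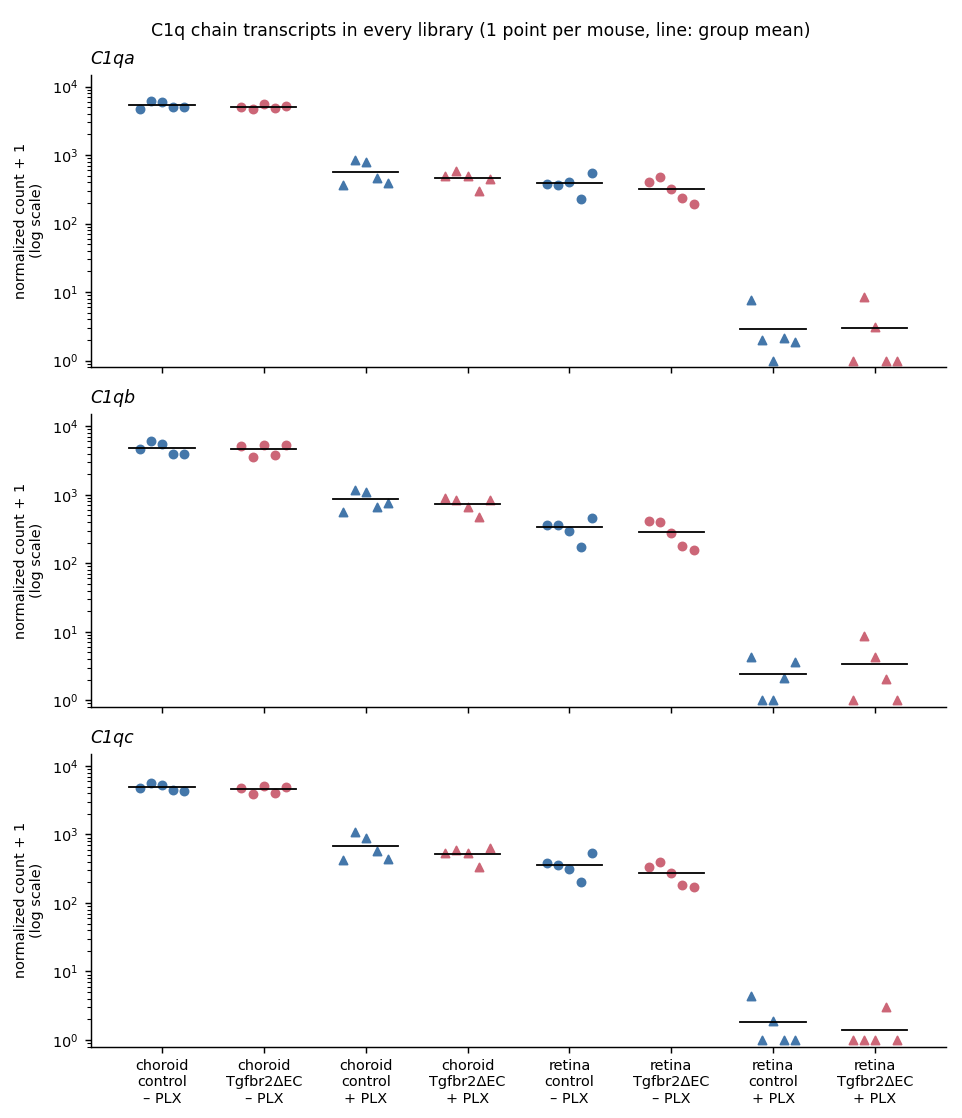
Normalised counts + 1 (log axis) of *C1qa*, *C1qb* and *C1qc* in each of the 40 libraries, in 8 groups of 5 mice, with circles for – PLX, triangles for + PLX, blue for control, red for Tgfbr2ΔEC and a black line at the group mean. Every + PLX choroid lies below every – PLX choroid, and every + PLX retina is below 10 counts for each chain.

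With PLX, all chains fell in the choroid of both genotypes, most for *C1qa*, less for *C1qc* and least for *C1qb*, and stayed far above the floor. In control + PLX choroids *C1qa* was 359.8, 841, 793, 456 and 384 (567 ± 232, SD, n = 5), and in Tgfbr2ΔEC + PLX choroids it was 499.6, 589, 498, 296 and 444 (465 ± 108). The highest + PLX value was far below the lowest – PLX value. The fitted level with PLX was 9.93% of that without (95% CI 7.34 to 13.4) in controls and 9.01% (6.67 to 12.2) in Tgfbr2ΔEC mice (limma, log2 differences -3.33 ± 0.21 SE and -3.47 ± 0.21, adjusted p = 5.24e-09 and 1.82e-09).

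*C1qc* fell to an intermediate extent. It was 430.4, 1083, 895, 569 and 438 in control + PLX choroids (683 ± 292) and 539, 589.7, 534, 336 and 634 in Tgfbr2ΔEC + PLX choroids (527 ± 114). The fitted levels were 13.2% (9.64 to 17.9) and 11.3% (8.28 to 15.4) of those without PLX (log2 differences -2.93 ± 0.21 and -3.15 ± 0.21, limma adjusted p = 1.83e-08 and 8.99e-09).

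*C1qb* kept the largest share. It was 553, 1181, 1108, 670.5 and 754 in control + PLX choroids (853 ± 276) and 895, 830.1, 657, 469.6 and 830.4 in Tgfbr2ΔEC + PLX choroids (737 ± 173). The fitted levels were 17.2% (12.7 to 23.4) and 15.8% (11.7 to 21.4) of those without PLX (log2 differences -2.54 ± 0.21 and -2.66 ± 0.21, limma adjusted p = 9.1e-08 and 6.04e-08). No + PLX choroid overlapped a – PLX choroid for any chain, and each exact two-sided permutation test of 5 mice against 5 gave p = 0.00794, the smallest such a test can give.

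Of the 23619 genes tested in choroid, 3.15% were called lower and 0.601% higher with PLX in controls, and 3.5% lower and 0.559% higher in Tgfbr2ΔEC mice, against 3 of 3 chains called lower in each. Ordered by p-value, *C1qa*, *C1qc* and *C1qb* stood at positions 3, 16 and 30 in controls and at 4, 9 and 19 in Tgfbr2ΔEC mice. In bulk tissue, fewer cells of a type and less RNA per cell cannot be told apart.

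In the retina PLX took the chains to or near the floor. *C1qa* was 6.58, 0.984, 0, 1.15 and 0.857 in control + PLX retinas and 0, 7.58, 2.12, 0 and 0 in Tgfbr2ΔEC + PLX retinas. *C1qb* was 3.32, 0, 0, 1.12 and 2.61 and 0, 7.64, 3.23, 1.03 and 0, and *C1qc* was 3.35, 0, 0.878, 0 and 0 and 0, 0, 0, 2.05 and 0. Every + PLX retina lay below every – PLX retina for each chain (exact permutation p = 0.00794 for each), and all 3 chains were called lower in both genotypes (limma, adjusted p from 4.31e-10 to 1.23e-07), against 0.727% of 23243 genes called lower and 0.0086% higher in controls and 0.512% lower and 0.0043% higher in Tgfbr2ΔEC mice.

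Because a fold against values near 0 depends on the pseudocount, the retinal fall was also read from pooled reads. Over 5 control retinas, about 2216 reads of *C1qa* without PLX stood against 10 with PLX, a ratio of 211 after depth was allowed for (95% counting interval 115 to 441). The ratio was 261 (126 to 650) for *C1qb*, with 1914 against 7 reads, and 487 (190 to 1791) for *C1qc*, with 2044 against 4 reads. In Tgfbr2ΔEC retinas the ratios were 183 (95.9 to 400) for *C1qa*, 132 (73.7 to 265) for *C1qb* and 694 (192 to 5733) for *C1qc*, the last with 2 reads left over 5 libraries. These intervals cover counting error only and leave out the spread between mice, and they overlapped between chains and between genotypes.

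The chains did not fall in step in the choroid, so the ratio between them changed with PLX. Without PLX the ratio of *C1qb* to *C1qa* counts was 1, 0.964, 0.946, 0.768 and 0.78 in control choroids (mean 0.892 ± 0.109, SD, n = 5). With PLX it was 1.54, 1.4, 1.4, 1.47 and 1.96 (1.55 ± 0.234). In Tgfbr2ΔEC choroids it was 1.01, 0.762, 0.963, 0.789 and 1.02 without (0.908 ± 0.122) and 1.79, 1.41, 1.32, 1.58 and 1.87 with PLX (1.59 ± 0.236). All 10 + PLX choroids thus held more *C1qb* than *C1qa* counts and lay above all 10 – PLX choroids.

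The ratio of *C1qc* to *C1qa* went from 0.906 ± 0.0535 to 1.2 ± 0.0685 in controls and from 0.907 ± 0.0588 to 1.14 ± 0.165 in Tgfbr2ΔEC mice. That of *C1qb* to *C1qc* went from 0.983 ± 0.0889 to 1.3 ± 0.244 and from 0.997 ± 0.0724 to 1.4 ± 0.161. In each of these 6 comparisons the diets did not overlap (two-sided exact permutation, 5 mice in each diet, p = 0.00794, Benjamini-Hochberg adjusted p = 0.0119 over 9 ratio tests). The 3 ratios of a library are not independent, since any pair of them gives the third. Between choroid and retina of the 10 – PLX mice the ratios differed by 1.01 to 1.04-fold, which an exact sign-flip test did not tell from none (adjusted p from 0.344 to 0.76). Ratios in + PLX retinas were not read, since each group had a library with a chain at the floor.

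**Figure D2:**
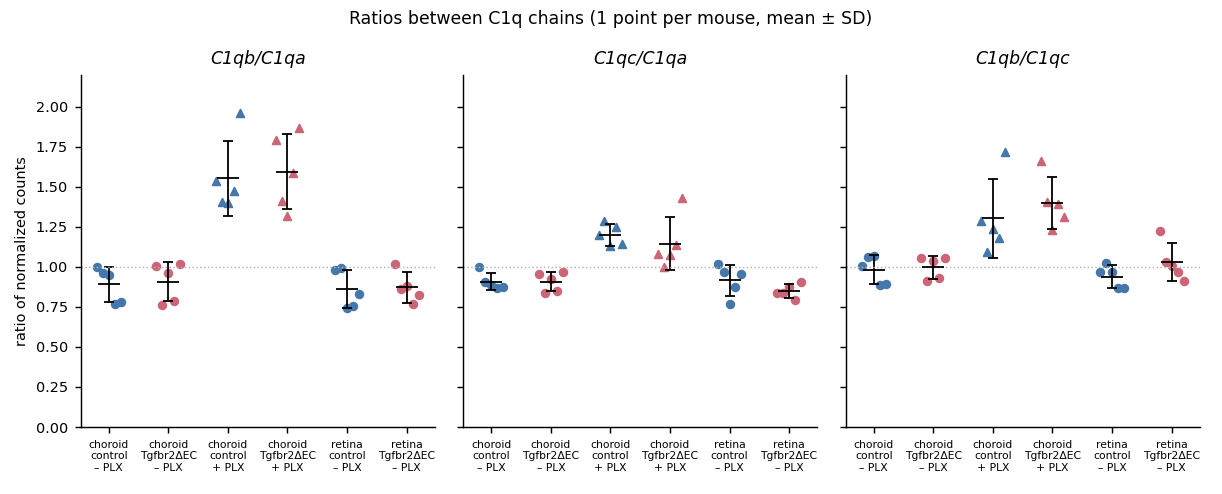
Ratio of normalised counts between pairs of C1q chains (linear axis from 0), with 1 point per mouse and the mean ± SD of 5 mice, for the 4 choroid groups and the – PLX retinas; + PLX retinas are at or near the floor and not shown. In choroid the *C1qb* to *C1qa* ratio lies between 0.762 and 1.02 without PLX and between 1.32 and 1.96 with PLX.

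The deletion of *Tgfbr2* in endothelium left no detectable difference in C1q. In – PLX choroids the Tgfbr2ΔEC level was 0.943 of control for *C1qa* (95% CI 0.697 to 1.27), 0.958 for *C1qb* (0.707 to 1.3) and 0.943 for *C1qc* (0.691 to 1.29), with limma adjusted p from 0.954 to 0.969. In + PLX choroids the factors were 0.856 (0.633 to 1.16), 0.878 (0.648 to 1.19) and 0.81 (0.594 to 1.11), with an adjusted p of 1. In – PLX retinas they were 0.827 (0.371 to 1.85), 0.84 (0.378 to 1.87) and 0.77 (0.413 to 1.44), with adjusted p from 0.985 to 0.986, so that changes within these wide bounds were not detectable in retina. Exact permutation tests gave p from 0.254 to 0.698 for these 9 comparisons. In + PLX retinas, where the chains were at or near the floor in both genotypes, the log2 differences were -0.23 (*C1qa*), 0.23 (*C1qb*) and -0.28 (*C1qc*), with exact permutation p from 0.714 to 0.794.

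With the 4 groups of a tissue in 1 fit, these comparisons called few genes of any kind. Between genotypes, 0.00423% of 23619 genes were called in – PLX and the same share in + PLX choroids (1 gene each), and 0.0% of 23243 genes in – PLX retinas, while 2184, 889 and 758 genes had an unadjusted p under 0.05 in limma. With only the compared groups in the fit, 303 genes were called in – PLX choroids, and no chain was among them (adjusted p from 0.83 to 0.944). The summed photoreceptor counts of Tgfbr2ΔEC – PLX choroids, 48630 to 138483, did not overlap those of control – PLX choroids, 4014 to 28320. With the photoreceptor score as a covariate the fitted C1q differences were 0.11, 0.09 and 0.14 on the log2 scale for *C1qa*, *C1qb* and *C1qc* in place of -0.09, -0.06 and -0.08, and none was called.

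The fall with PLX did not differ detectably between genotypes either. The difference of the log2 effects in choroid was -0.14 (95% CI -0.75 to 0.48) for *C1qa*, -0.13 (-0.75 to 0.49) for *C1qb* and -0.22 (-0.85 to 0.41) for *C1qc*, with a limma adjusted p of 0.993 for each. In retina it was 0.04 to 0.48 with an adjusted p of 1, on values whose + PLX arm was at or near the floor. No gene was called in this test in either tissue (0.0% of 23619 and 0.0% of 23243 genes), where 1552 and 567 had an unadjusted p under 0.05 in limma.

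Each of the 20 mice held more C1q in its choroid, the central part with the lesions, than in its retina. Without PLX the choroid to retina ratio of a single mouse ranged from 9.04 to 27.2 for *C1qa*, from 8.53 to 33.5 for *C1qb* and from 8.26 to 28.98 for *C1qc*. The fitted ratio in controls was 14.4 (95% CI 7.86 to 26.5) for *C1qa*, 15.0 (8.2 to 27.4) for *C1qb* and 14.3 (8.9 to 23.1) for *C1qc*. In Tgfbr2ΔEC mice it was 16.4 (8.95 to 30.1), 17.1 (9.34 to 31.2) and 17.5 (10.9 to 28.2). All 6 differences were called (limma, adjusted p from 2.06e-13 to 5.2e-10), as were 34.1% of the 24317 genes tested as higher in choroid in controls and 33.5% in Tgfbr2ΔEC mice, so being higher in choroid was common in this table.

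With PLX the gap between tissues was wider. On the log2(count + 1) scale the choroid exceeded the retina by 7.87 (*C1qa*), 8.67 (*C1qb*) and 8.71 (*C1qc*) in control + PLX mice and by 7.88, 8.25 and 8.69 in Tgfbr2ΔEC + PLX mice, and 33.7% and 34.2% of genes were called higher in choroid in these comparisons. Over both genotypes, the exact sign-flip test of 10 mice gave p = 0.00195 for each chain in each diet, the smallest it can give. The fall with PLX was larger in retina than in choroid by 4.02 ± 0.61 (SE), 4.76 ± 0.61 and 4.87 ± 0.48 log2 units for *C1qa*, *C1qb* and *C1qc* in controls and by 3.84 ± 0.61, 4.15 ± 0.61 and 4.56 ± 0.48 in Tgfbr2ΔEC mice.

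All 6 of these differences between tissues were called (limma, adjusted p from 2.25e-08 to 0.00028), against 0.44% and 0.773% of 24317 genes called in either direction in controls and Tgfbr2ΔEC mice. No – PLX mouse overlapped a + PLX mouse of its genotype in the within-mouse difference (exact permutation p = 0.00794 for each). The size depended on the pseudocount because the retinal + PLX arm was at or near the floor, and with a pseudocount of 5 in place of 1 it was 2.13 to 3.15 log2 units. Among the – PLX mice, the level of a chain in the choroid and in the retina of the same mouse had r = -0.1 (*C1qa*), 0.03 (*C1qb*) and -0.12 (*C1qc*) after group means were subtracted, over 10 mice.

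**Figure D3:**
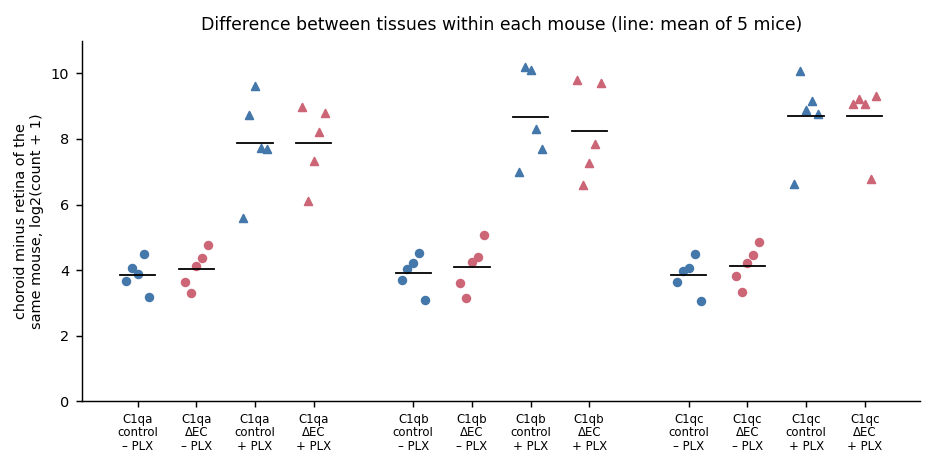
Choroid minus retina of the same mouse in log2(normalised count + 1), for each chain, genotype and diet, with 1 point per mouse (circles – PLX, triangles + PLX, blue control, red Tgfbr2ΔEC) and a line at the mean of 5 mice. Without PLX the differences lie between 3.04 and 5.06, and with PLX between 5.57 and 10.2.

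In choroid the C1q chains fell more with PLX than most genes of a general phagocyte list, but many macrophage genes and some microglia genes fell more than the chains. The general list, called the reference list, held 12 genes shared by mononuclear phagocytes, among them *Csf1r*, *Adgre1*, *Aif1*, *Itgam* and *Ptprc*. In choroid 12 of 12 of its genes were called lower in both genotypes, against 3.15% of all genes in controls and 3.5% in Tgfbr2ΔEC mice. The median log2 difference of the list was -1.8 in controls (range -2.76 to -1.05) and -1.9 in Tgfbr2ΔEC mice (-2.64 to -1.0). The median of all genes tested was 0.02 and -0.01. *C1qa* and *C1qc* fell more than all 12 in both genotypes, and *C1qb* fell more than 10 of 12 in controls and 12 of 12 in Tgfbr2ΔEC mice. *Csf1r*, the target of PLX5622, fell by 1.05 on the log2 scale in controls, from 8411 ± 293 to 4097 ± 654 counts, and by 1.0 in Tgfbr2ΔEC mice.

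After the mean of the reference list was subtracted from every gene of a library, the chains were still lower with PLX. Which cells gave the signal of the list was not tested. *C1qa* fell by 1.49 ± 0.14 (SE) log2 units in controls and by 1.56 ± 0.14 in Tgfbr2ΔEC mice. The differences were -1.08 ± 0.15 and -1.23 ± 0.15 for *C1qc* and -0.69 ± 0.18 and -0.75 ± 0.18 for *C1qb* (limma, adjusted p from 8.66e-10 to 0.00126). On this scale 0.368% of genes were called lower in controls and 0.279% in Tgfbr2ΔEC mice, and the median of all genes was 1.86 and 1.91. With *Csf1r* alone in place of the list the differences were larger, up to -2.47 for *C1qa*, and that of *C1qb* was -1.48 and -1.66.

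In retina the list was lower for 11 of 12 genes in controls (median -5.72) and 12 of 12 in Tgfbr2ΔEC mice (median -4.59). Of all genes tested, 0.727% and 0.512% were called lower. The chains were lower than the list by 2.2 to 2.7 log2 units in controls and by 2.14 to 3.03 in Tgfbr2ΔEC mice (limma, adjusted p from 1.77e-06 to 0.000187). All 3 chains were called lower than the list in each genotype, where 0.0344% and 0.043% of genes were. With PLX, 1 of the 12 list genes was at 0 in all 5 retinas of each genotype, so the size of this difference depends on the pseudocount. Between tissues without PLX the chains stood -0.56, -0.51 and -0.57 log2 units (*C1qa*, *C1qb*, *C1qc*) from the list in controls, with adjusted p of 0.0746, 0.135 and 0.134. In Tgfbr2ΔEC mice the values were -0.69, -0.64 and -0.6, with adjusted p of 0.0288, 0.061 and 0.117. Thus 1 of 6 was called, against 93.2% and 94.3% of all genes in either direction. Since most genes differ from the list, adjustment over all genes hardly changed the p-values of this paragraph. For *C1qa* in Tgfbr2ΔEC mice without PLX, for example, limma p went from 0.0269 to 0.0288. That call was lost with a pseudocount of 0.5 (-0.6997) and when mouse 7, 8 or 9 was left out (-0.607, -0.704 and -0.596), whereas a pseudocount of 5 called the other 5 as well (-0.46 to -0.57). Against *Csf1r* alone in place of the list, the 3 values in Tgfbr2ΔEC mice turned to 0.17, 0.22 and 0.26 and none was called. In controls the values against *Csf1r* kept their sign but shrank, the smallest to -0.018, and none was called. With PLX the values had the opposite sign, at 0.21, 1.01 and 1.05 in controls and 0.39, 0.76 and 1.2 in Tgfbr2ΔEC mice. *C1qb* and *C1qc* were called in both genotypes (limma, adjusted p from 0.00213 to 0.0253) and *C1qa* in neither, against 98.8% and 98.7% of all genes in either direction, and the retinal chains on which these values rest were at or near the floor. With a pseudocount of 5 the calls of *C1qc* were lost in both genotypes. The calls of *C1qb* and *C1qc* in controls were lost without mouse 12 (0.664 and 0.748), and that of *C1qb* in Tgfbr2ΔEC mice without mouse 16 or 20 (0.56 and 0.419), while *C1qa* was called in Tgfbr2ΔEC mice without mouse 17 (0.648).

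Lists marking kinds of phagocyte moved unequally beside C1q. In choroid, all 8 genes of tissue and perivascular macrophages were called lower with PLX in both genotypes (medians -3.2 and -3.46). Of all genes tested, 3.15% were called lower in controls and 3.5% in Tgfbr2ΔEC mice. In controls 3 of the 8 fell more than *C1qa*, 6 more than *C1qc* and 7 more than *C1qb*, and in Tgfbr2ΔEC mice 4, 4 and 6 did. The 3 past *C1qa* in controls were *Cd163*, a haemoglobin scavenger receptor, *Mrc1*, the mannose receptor, and *Folr2*, a folate receptor, which fell by 5.36, 4.11 and 4.09 log2 units. Of 7 microglia genes, 5 were called lower in each genotype (medians -2.63 and -1.68), against the same 3.15% and 3.5% of all genes. In controls *Cx3cr1*, the fractalkine receptor, and *Gpr34*, a receptor for lysophospholipids, fell by 3.61 and 3.54, more than any chain. Of these 7 genes, 2 fell more than *C1qa*, 3 more than *C1qc* and 4 more than *C1qb* in controls, and 1, 3 and 3 in Tgfbr2ΔEC mice. *Tmem119*, a microglia gene in the retina, was not called in choroid (0.01 and 0.06). Of 4 monocyte genes 1 was lower, *Ccr2*, a chemokine receptor of inflammatory monocytes, at -2.17 and -1.49. Of 4 neutrophil genes tested none was called, against 3.75% and 4.06% of all genes called in either direction in controls and Tgfbr2ΔEC mice. No call among so few genes is near that background. The summed counts of the monocyte list were 2430 to 4576 in – PLX and 826 to 1797 in + PLX choroids. The part of each cell type in the C1q level was not tested.

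In retina the order of the lists differed. All 7 microglia genes were called lower in both genotypes (medians -4.83 and -4.87), with *Cx3cr1* at -7.52 and -7.21 and *Tmem119* at -5.88 and -5.74 beside C1q. Of all genes tested in retina, 0.727% were called lower in controls and 0.512% in Tgfbr2ΔEC mice. Of the 8 macrophage genes 2 were called lower in controls, *Mrc1* and *F13a1*, and 0 in Tgfbr2ΔEC mice, the latter near that background. The difference of the PLX effect between tissues was called for 9 of 12 reference genes in each genotype, in the direction of C1q. Of all genes tested, 0.44% in controls and 0.773% in Tgfbr2ΔEC mice were called in either direction. Of the 7 microglia genes 3 were called in that direction in each genotype, among them *Tmem119* (5.88 in controls and 5.80 in Tgfbr2ΔEC mice) and *Cx3cr1* (3.90 and 3.89). Unlike C1q and *Cx3cr1*, *Tmem119* was not called with PLX in choroid. Of the 8 macrophage genes *Cd163* and *Lyve1* were called in the opposite direction in both genotypes, and *Folr2* in Tgfbr2ΔEC mice (-4.48, limma adjusted p = 0.0262). *Cd163* had little room to fall in retina: its mean was 3.01 counts in control and 1.05 in Tgfbr2ΔEC – PLX retinas, and it was 0 in all 10 + PLX retinas, so that its direction is limited by the floor. *Folr2* was also low in Tgfbr2ΔEC retinas (1.05 to 51.3 counts without PLX and 2.53 to 48.5 with PLX), whereas *Lyve1*, a hyaluronan receptor, lay between 231 and 349 in every retina, well above the floor. With PLX, 3 of the 8 macrophage genes in control and 2 in Tgfbr2ΔEC mice were at 0 in all 5 retinas.

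Genes of other cell types were counted beside 3.75% of all genes called in either direction in control choroids with PLX and 4.06% in Tgfbr2ΔEC choroids. Of these lists, 0 of 5 retinal pigment epithelium genes, 0 of 5 melanocyte genes and 0 of 4 mast cell genes were called in choroid in either genotype. Of 6 endothelial genes 1 was called higher in each genotype, and of 5 fibroblast genes 0 in controls and 1, *Dcn*, in Tgfbr2ΔEC mice. Of 5 dendritic cell genes 1 was lower in each genotype, and of 10 photoreceptor genes 0 in controls and 1, *Rom1*, in Tgfbr2ΔEC mice, where the median of the list was -2.19.

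**Figure D4:**
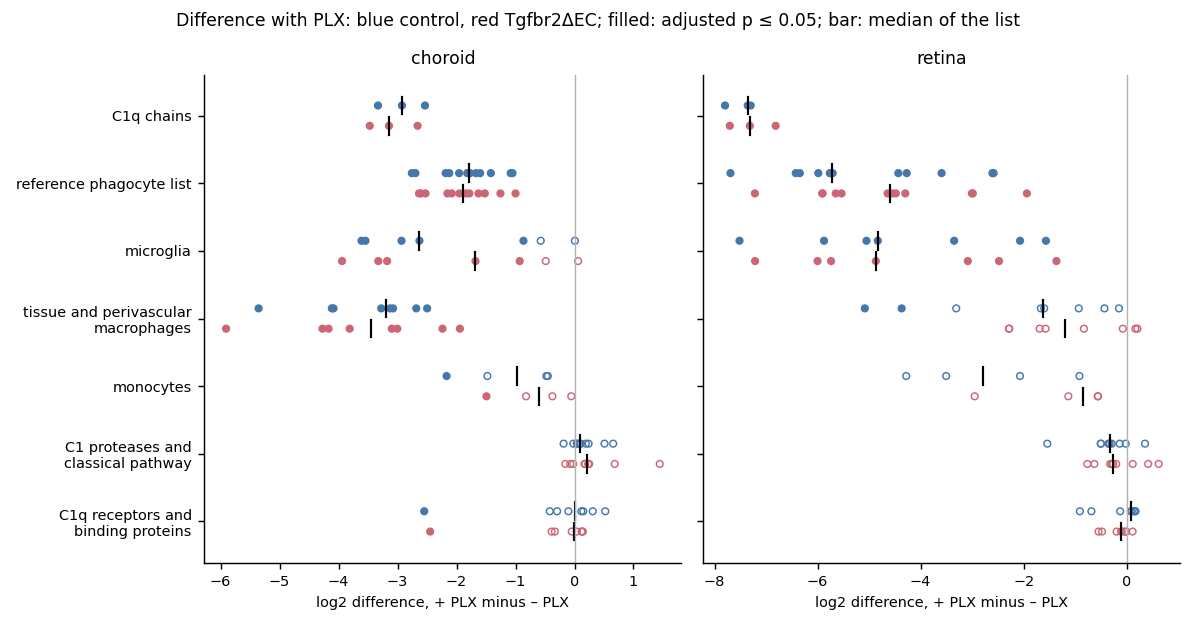
Log2 difference with PLX (+ PLX minus – PLX, limma on log2(normalised count + 1)) of the C1q chains and of the genes of 6 lists in choroid and in retina, with 1 point per gene, blue for control and red for Tgfbr2ΔEC, filled where the adjusted p was at or under 0.05, and a bar at the median of the list. In choroid the chains lie between -3.47 and -2.54, to the left of the reference list median of -1.8 and -1.9, and the protease list lies around 0.

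Genes of transcription factors named above had smaller log2 differences in choroid than the chains. *Spi1*, which encodes PU.1, fell from 952 ± 73.0 to 269 ± 104 counts in control choroids (log2 difference -1.92, limma adjusted p = 3.63e-05) and by 1.91 in Tgfbr2ΔEC choroids. *Irf8* fell by 1.237 and 1.11, and *Maf* by 0.78 and 0.8. In retina the log2 difference of *Spi1* was -4.88 in Tgfbr2ΔEC mice (limma, adjusted p = 0.00192) and -3.35 in controls, where it was not called (adjusted p = 0.0591). The difference between these 2 effects, -1.54, was not called. Retinal counts of *Spi1* with PLX were low, so the sizes depend on the pseudocount. *Irf8* and *Maf* were not called with PLX in retina in either genotype. The difference of the PLX effect between tissues was called for *Maf* in the direction opposite to C1q (-0.64 in controls and -0.79 in Tgfbr2ΔEC mice).

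The partners of C1q in the classical pathway were expressed in the same tissue. Of 10 genes for C1 proteases, their inhibitor and the next components, 0 were called in either direction in choroid in either genotype (medians 0.1 and 0.21), against 3.75% and 4.06% of all genes, and 0 of the 9 tested in retina, against 0.736% and 0.516%. With shares this low, 0 calls among so few genes are near the background. Without PLX, 9 of 10 were called higher in choroid than in retina in controls and 8 of 10 in Tgfbr2ΔEC mice, against 34.1% and 33.5% of all genes tested. *C1ra* and *C1s1*, which encode the proteases C1r and C1s, were 5395 ± 726 and 8194 ± 834 counts in control – PLX choroids and 6199 ± 1156 and 8571 ± 1438 with PLX. *Serping1*, the C1 inhibitor, was 15124 ± 1667 and 18001 ± 3333, *C4b* 6203 ± 709 and 5599 ± 1703, and *C3* 6058 ± 1988 and 6306 ± 1539. *C1ra* and *C1rb*, *C1s1* and *C1s2*, and *C4a* and *C4b* are near-identical pairs, and the split of reads within a pair is uncertain.

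Of 8 genes for receptors and binding proteins of C1q, 1 was called with PLX in choroid in each genotype and 0 in retina, against 3.75% and 4.06% of all genes in choroid and 0.736% and 0.516% in retina. *Lair1*, an inhibitory receptor that binds collagens and C1q, fell from 857 ± 170 to 148 ± 46.6 counts in control choroids, a log2 difference of -2.55 (limma, adjusted p = 6.96e-08), and by 2.45 in Tgfbr2ΔEC choroids. In retina *Lair1* was -0.91 (adjusted p = 0.084) and -0.55, and the difference between tissues was called opposite in direction to C1q (-1.64 and -1.9). *Cd93*, a C-type lectin of endothelium and myeloid cells once named a C1q receptor, was -0.42 and -0.39 in choroid and not called.

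Of 24 other genes with a C1q-like globular domain tested in choroid, 0 were called with PLX in controls, against 3.75% of all genes, and 4 in Tgfbr2ΔEC mice, against 4.06%. Of these 4, *Col10a1*, a network collagen, was called higher (0.93), and *Cbln1*, *Cbln2* and *Cbln4*, cerebellins of neurons, were called lower (-2.99, -3.38 and -2.88) in the comparison in which the photoreceptor list had a median of -2.19. In retina 0 of 22 were called in either genotype, near the background of 0.736% and 0.516%. Of 8 annotated genes within 100 kb of the cluster 2 were tested, *Epha8* and *Zbtb40*, and neither was called with PLX in any of the 4 comparisons (log2 differences -0.63 to 0.2).

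Across the 20 choroids the chains had r of 0.991 to 0.997 with each other on the log2 scale, and across the 20 retinas 0.972 to 0.993, over a range that includes the fall with PLX. After group means were subtracted, r was 0.847 to 0.943 in choroid. In the 10 – PLX retinas it was 0.962 to 0.979, and over all 20 retinas, with the + PLX libraries at or near the floor, 0.295 to 0.878. The genes most like the mean of the chains over all 20 choroids were *Fermt3* (r = 0.992), *Lgmn* (0.988), *Hcls1* (0.987), *Fcer1g* (0.986) and *Mrc1* (0.985) among 17594 genes with a mean of at least 10. After group means were subtracted they were *Alox5ap* (0.875), *Prpf3* (0.852), *Fcer1g* (0.825), *Pf4* (0.82) and *Tyrobp* (0.819). In retina, over all 20 libraries and 17177 genes, they were *Cx3cr1* (0.992), *Ly86* (0.99), *P2ry13* (0.989), *Fcgr3* (0.984) and *Adgre1* (0.984). With group means subtracted the best values there were *Zfp574* (0.831), *Fam43a* (0.831), *Il4ra* (0.831), *Tapbpl* (0.8) and *Nelfcd* (0.797), with the 10 + PLX libraries at or near the floor. The libraries share their normalisation, and the highest of so many correlations are high by selection.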

How the data were processed

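Poly(A) RNA of 20 choroids and 20 retinas was sequenced as stranded single reads. The authors checked reads with FastQC 0.11.5, quantified them with Salmon 1.10.1 against the GENCODE transcripts of GRCm39, summed them per gene with tximport and scaled them with DESeq2 1.36.0. The deposited signal is therefore a normalised count that is not a whole number, and no count model was used on it. Values within 0.1 of a whole read made up 50.3% to 78.0% of low values in a library, so whole reads were not recovered and depth is approximate. Of 54307 genes, 53700 were matched to the annotation.

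Differences were fitted with limma 3.58.1 (R 4.3.3) on log2(normalised count + 1), letting the variance follow the mean level, a scale that understates changes of low genes. Genes averaging 1 or more were tested, with 4 groups of a tissue in 1 fit or 8 groups of both tissues in 1 fit, p-values were adjusted by Benjamini-Hochberg over all genes tested, and genes were called at an adjusted p of 0.05 or less. Exact tests, correlations and counting intervals were computed with Python 3.11.15 and scipy 1.17.1, and proteins were aligned with Biopython 1.88. The authors also held sex and an estimated neuronal percentage as covariates, which the labels do not give, and scores from marker genes stood in for them as alternatives. On simulated data for the choroids of Tgfbr2ΔEC against control – PLX mice (23656 genes), 132 of 200 genes changed by 2-fold were called (66%), and 6 unchanged genes were. The simulation held no PLX effect and no shared photoreceptor shift, drew genes independently and changed only genes with a mean of at least 10. Its share is therefore not the power of the real comparison.

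The mouse number in the library names links the choroid and retina of 1 animal. Deviations of the same mouse in both tissues had r from -0.112 to 0.178, with 5 of 20 over 0.1. Alternatives were other pseudocounts, filters and scaling, robust variance, the covariates, only the groups compared, the mouse as a block, *Csf1r* in place of the reference list, and each mouse left out.

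The members, lists and tests were chosen with earlier results of these data known. Named genes were the chains, a set of pathway genes (of which 1 is not reported here), list genes called in a comparison, neighbours within 100 kb and the 5 genes most correlated with the mean of the chains in each tissue. The median of all genes moved by less than 0.1 on the log2 scale in every comparison except those relative to the reference list.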

Additional observations from a re-analysis of the deposited data

Results flagged for a closer look

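In 6 of 42 groups of 5 mice that were checked, 1 mouse stood apart from the others by Dixon's criterion. Chance meets this criterion in about 1 of 20 groups only where values are independent and normally distributed. The groups checked share libraries and chains, and counts at or near the floor are not normally distributed. The 6 of 42 groups therefore cannot be set against that rate. Among retinas with PLX, where levels were at or near the floor, the values that stood apart were 4. They were *C1qa* at 6.58 normalised counts in a control and at 7.58 in a Tgfbr2ΔEC mouse, and *C1qc* at 3.35 in a control and at 2.05 in a Tgfbr2ΔEC mouse. In control + PLX choroids the *C1qb* to *C1qa* ratio of mouse 15 was 1.96, and in control – PLX choroids the *C1qc* to *C1qa* ratio of mouse 1 was 0.998.

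The fall with PLX differed between choroid and retina for every chain. On the log2(count + 1) scale it was larger in retina by 4.02 for *C1qa*, 4.76 for *C1qb* and 4.87 for *C1qc* in controls, and by 3.84, 4.15 and 4.56 in Tgfbr2ΔEC mice.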

How the results depend on the processing

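Over the results on the C1q chains, leaving out 1 mouse kept the direction and the side of the threshold in 686 refits, turned the direction in 26, lost the call in 7 and gained it in 1. The other alternatives kept both in 443 refits, turned the direction in 11, gained a call in 7 and lost it in 4. The fall with PLX in both tissues, the higher level in choroid and the changed ratios in choroid were among those kept. With the photoreceptor score as a covariate, the genotype differences in – PLX choroids changed sign to 0.11 (*C1qa*), 0.085 (*C1qb*) and 0.14 (*C1qc*), and with the sex score that of *C1qb* was 0.00491. With a pseudocount of 0.5 the difference of the PLX effect between genotypes in retina was -0.16 for *C1qa* and -0.0333 for *C1qc*. None of these was called. Against *Csf1r* alone the tissue differences in Tgfbr2ΔEC – PLX mice changed sign to 0.17, 0.22 and 0.26. Against the reference list, that of *C1qa* was -0.6997 and lost its call with a pseudocount of 0.5, while a pseudocount of 5 called *C1qa* (-0.51), *C1qb* (-0.46) and *C1qc* (-0.52) in controls and *C1qb* (-0.57) and *C1qc* (-0.53) in Tgfbr2ΔEC mice. With PLX, *Csf1r* alone called *C1qa* (1.41 in controls and 2.02 in Tgfbr2ΔEC mice), a pseudocount of 0.5 lost *C1qb* in Tgfbr2ΔEC mice (0.822), and a pseudocount of 5 turned *C1qa* (-0.0681 and -0.033) and lost *C1qc* (0.396 and 0.417). The cause was not tested.

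With 1 mouse left out, the genotype difference of *C1qb* in – PLX choroids ranged from -0.13 to 0.025. The difference of the PLX effect between genotypes ranged from -0.28 to 0.027 (*C1qa*) and -0.27 to 0.027 (*C1qb*) in choroid, and from -0.497 to 0.48 (*C1qa*) and -0.23 to 0.47 (*C1qc*) in retina. The list-relative tissue difference of *C1qa* in Tgfbr2ΔEC mice ranged from -0.81 to -0.60. With PLX the list-relative differences ranged in controls from -0.0112 to 0.578 (*C1qa*), 0.664 to 1.21 (*C1qb*) and 0.748 to 1.359 (*C1qc*), and in Tgfbr2ΔEC mice from 0.188 to 0.648 (*C1qa*) and 0.419 to 0.984 (*C1qb*). The log2 ratio of *C1qb* to *C1qc* between tissues ranged from -0.00936 to 0.037.

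With the mouse as a block the differences between tissues kept their calls. The difference of the PLX effect between tissues for *C1qa* in controls, for example, was 4.02 (limma, adjusted p = 0.00122). The number of genes called with PLX in choroid fell from 958 to 537 in Tgfbr2ΔEC mice with the photoreceptor score. With only the compared groups it fell from 885 to 572 in controls and rose from 958 to 1381 in Tgfbr2ΔEC mice, and the count between genotypes without PLX rose from 1 to 303. In control retinas it fell from 171 to 104 when a mean of at least 10 was required. For the difference of the PLX effect between tissues in Tgfbr2ΔEC mice, 188 genes were called. With 1 mouse left out this ranged from 103 (without mouse 9) to 270 (without mouse 7). Depth limits what can be said of retinas with PLX, where a chain was at most 11 reads over 5 libraries.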
